A study of Mus musculus with 18 samples.

Results

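Cytosolic ribosomal proteins are the protein components of the translating ribosome, and their genes were followed here through Treg cells of 6 genotypes. Members were the entries of the expression table named Rps or Rpl with a number, Rplp0 to Rplp2, or Rpsa, so that ribosomal S6 kinases and mitochondrial ribosomal proteins stayed out. The rule used names only. It found 77 of 23953 entries: 31 of the small subunit and 46 of the large subunit.

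Treg cells were sorted from C57BL/6 mice as CD4+CD25hi cells, and RNA was sequenced from 18 libraries, 3 per genotype. In miR-23 Tg, miR-24 Tg and miR-27 Tg mice T cells overexpressed 1 microRNA of the miR-23 cluster, and in cluster Tg mice the whole cluster. DKO mice lacked both clusters, miR-23a and miR-23b, in T cells. WT mice, entered in the labels as "WT Tg" just as the DKO mice are entered as "DKO Tg", were the control. The series title names CD4cre, a recombinase active from the thymus onward in CD4 and CD8 T cells, so the microRNA change was not limited to Treg cells. The labels give neither age nor sex and leave unsaid whether each library stands for an animal of its own, so p-values here measure only the spread between these samples, which may be technical.

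Ribosomal protein mRNAs are among the most abundant in a cell. Most carry a terminal oligopyrimidine (TOP) motif, a cytosine at the cap followed by a run of C and T, through which mTORC1 and the RNA-binding protein Larp1 set their translation and stability. Lymphocytes raise ribosome production when they grow and divide, with Myc as one driver of these genes. Surplus ribosomal proteins such as Rpl5, Rpl11 and Rpl23 can bind Mdm2 and so link ribosome assembly to p53.

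MicroRNAs pair with mRNAs through their seed, bases 2 to 8. The mature sequences of the 3 overexpressed microRNAs follow, from RefSeq on GRCm38, with the seed in capitals, because the members were searched for their sites. All lie close to each other on chromosome 8, plus strand, at chr8:84208563-84208583, chr8:84208875-84208896 and chr8:84208727-84208747 in the order shown.
miR-23a-3p: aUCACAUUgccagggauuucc
miR-24-3p: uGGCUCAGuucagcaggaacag
miR-27a-3p: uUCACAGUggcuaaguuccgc

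Matches to these seeds were scarce in the annotated 3′ UTRs of the members, which were short. In the GENCODE transcript picked for each gene the 3′ UTR had a median of 69 bases over the 77 members, ranging from 28 to 4728, against 980 bases over 10148 other tested genes. The miR-27 site ACTGTGA was present in 2 members (2.6%), against 15.6% of the other genes. The miR-24 site CTGAGCC was present in 4 members (5.19%), against 17%, and the miR-23 site AATGTGA in 2 members (2.6%), against 15%. The members' miR-27 sites were in Rpl21 and Rpl27a, their miR-23 sites in Rpl5 and Rps29, and their miR-24 sites in, among others, Rpl37, Rps24 and, 3 times in its UTR of 4728 bases, Rps15a. The transcript picked for Rps15a has 5179 bases with a coding part of 393, and its first miR-24 match starts at base 1961 of the UTR. Whether Rps15a mRNA in these cells carries this long UTR was not tested. Shown are both miR-27 matches and the first miR-24 match of Rps15a, with the match in capitals.
Rpl21, miR-27 match: ccagcaccaggACTGTGAagtgttttcct
Rpl27a, miR-27 match: tttgtaagcttACTGTGAtggacaggtag
Rps15a, miR-24 match: aaagcatgagcCTGAGCCttcatgcctgg

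The promoters of the members carried the C and T run that gives TOP mRNAs their name more often than other promoters did. RefSeq promoter windows (GRCm38, 250 bases before to 50 after the start) matched 57 members with 67 windows. The other windows were those of 26968 further symbols, whether expressed here or not, while the UTR comparison used tested genes only. Whether the members differ from other expressed genes in these promoter features was not tested. A run of at least 10 C or T touching the 10 bases on either side of the start was found in 22 of the 67 (32.8%), against 7.06% of 32784 other windows. A C at the start itself with 4 or more pyrimidines after it was found in 13 (19.4%), against 2.47%. Over the whole window and both strands, CCGGAAG (an ETS-type motif) was in 37.3% against 8.8%, GGGCGG (an Sp1-type motif) in 61.2% against 35.6% and AAGATGGC (a YY1-type motif) in 10.4% against 2.73%. A match describes these letters only and is not evidence of binding. The windows below show 30 bases on each side of the start for 5 members, with the longest pyrimidine run in capitals. All 5 are among the 13 windows with a C at the start and pyrimidines after it, so they are not typical of the members. Rpl23, Rpl41 and Rps3a1, which also recur in the results, did not have such a start and had runs of 3, 3 and 2 bases. In Rps15a the marked run ends before the start, and the pyrimidines from the start onward are not in capitals. Rps15a is at chr7:118116118-118116177 on the minus strand, Rplp2 at chr7:141447621-141447680 on the plus strand and Rps10 at chr17:27635215-27635274 on the minus strand. Rps6 is at chr4:86857338-86857397 on the minus strand and Rpl38 at chr11:114668550-114668609 on the plus strand.
Rps15a: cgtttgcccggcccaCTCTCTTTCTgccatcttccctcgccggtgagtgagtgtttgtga
Rplp2: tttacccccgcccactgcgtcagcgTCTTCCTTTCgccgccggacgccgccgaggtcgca
Rps10: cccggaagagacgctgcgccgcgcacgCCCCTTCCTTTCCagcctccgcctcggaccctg
Rps6: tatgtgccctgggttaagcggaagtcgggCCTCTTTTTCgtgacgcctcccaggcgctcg
Rpl38: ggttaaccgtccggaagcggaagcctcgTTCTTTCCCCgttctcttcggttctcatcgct

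The expression values are RPKM, reads scaled to transcript length and to the reads of the library, so each level is relative to the other RNA of the same library. Depth, estimated from the spacing of low values, was 20.16 to 31.52 megareads, and 10710 to 11121 entries reached 1 RPKM. The Mir27a locus had 50010 to 79110 RPKM in miR-27 Tg, 13710 to 24080 in cluster Tg, 0 in all 3 DKO libraries and 0 to 347 in WT. Foxp3 (197 to 348 RPKM) and Cd3e (249 to 370 RPKM) were present in every library. Foxp3 was not at the same level in all genotypes, though not called against WT in any. It was at 215 to 249 RPKM in miR-23 Tg and 207 to 283 RPKM in cluster Tg, below the 287 to 336 RPKM of WT. In miR-24 Tg (236 to 291 RPKM), miR-27 Tg (197 to 328 RPKM) and DKO (312 to 348 RPKM) it overlapped WT. In bulk RNA a change in the share of a cell type and a change per cell cannot be told apart.

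As a group the members took up less of the transcriptome in the miR-27 Tg and cluster Tg genotypes than in WT. Their share of the summed RPKM, small RNA entries left out, was 7.14%, 6.83% and 7.13% in miR-27 Tg libraries 1 to 3, against 10.3%, 11% and 10% in WT. In cluster Tg it was 6.78%, 6.95% and 9.09%, so that library 3 stood apart from the other two. The 3 miR-23 Tg libraries were at 9.03%, 9.92% and 9.03%, the miR-24 Tg libraries at 8.56%, 8.66% and 9.65% and the DKO libraries at 8.7%, 9.2% and 10.6%. Every miR-27 Tg and every cluster Tg library lay below every WT library, as did the miR-23 Tg and miR-24 Tg libraries, while DKO library 3 lay among the WT libraries. The mean over members of log2(RPKM + 0.5) averaged 5.90 ± 0.0306 in miR-27 Tg, 6.08 ± 0.223 in cluster Tg, 6.2 ± 0.143 in miR-24 Tg, 6.33 ± 0.0862 in miR-23 Tg, 6.33 ± 0.186 in DKO and 6.46 ± 0.0611 in WT (SD, n = 3 each). In that order miR-27 Tg did not overlap cluster Tg, and each later neighbour overlapped the next in its range over libraries. Of the 77 members, 66 had their lowest mean in miR-27 Tg and 55 their highest in WT. Both subunits were lower in the miR-27 Tg genotype, with a median log2 fold change against WT of -0.67 for the 31 small-subunit genes and -0.56 for the 46 large-subunit genes. The small-subunit mean exceeded the large-subunit mean on the log2 scale by 1.03 to 1.07 in miR-27 Tg and 0.98 to 1.05 in cluster Tg. The same difference was 1.03 to 1.08 in miR-23 Tg and 1.12 to 1.16 in WT. Thus miR-27 Tg, cluster Tg and miR-23 Tg did not overlap WT in it, while miR-24 Tg (1.0 to 1.15) and DKO (1.07 to 1.14) did.

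**Figure D1:**
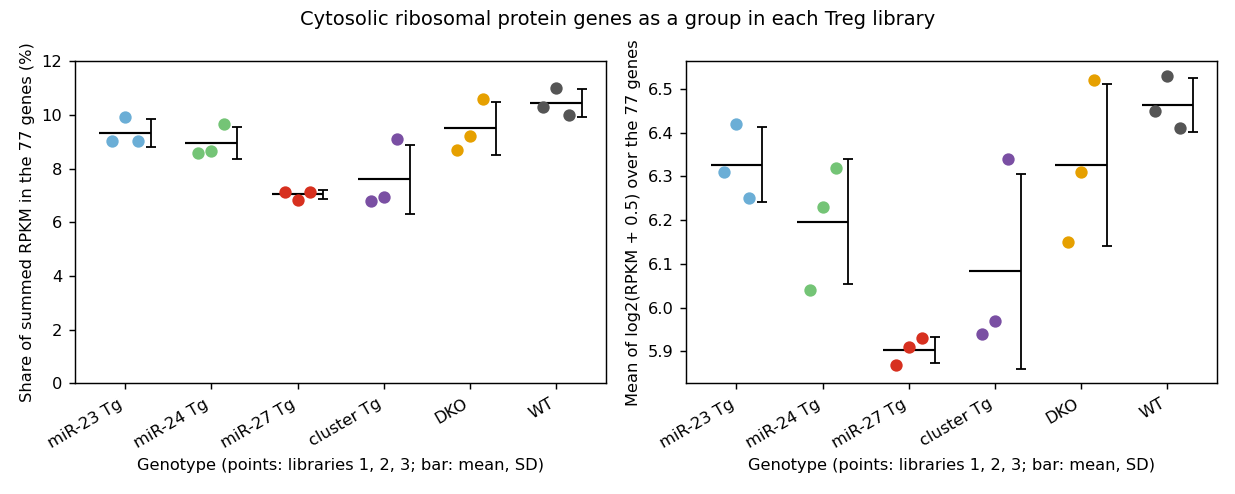
The left panel plots the share of summed RPKM in the 77 genes (%, small RNA entries left out) and the right panel the mean of log2(RPKM + 0.5) over the 77 genes, by genotype. Points are libraries, horizontal bars the mean of 3 and error bars the SD; the 3 miR-27 Tg libraries sit at 6.83% to 7.14%, below all others except 2 of cluster Tg, and WT at 10% to 11%.

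Most members fell in miR-27 Tg relative to WT, the comparison that asks what an excess of miR-27 alone goes with. With limma and Benjamini-Hochberg adjustment over 11520 tested entries, all 77 members were tested, 50 were called lower (64.9%) and 0 higher, against 12.7% of all tested entries called lower and 15.9% called higher. The remaining 27 members did not pass. In 59 members all 3 miR-27 Tg libraries lay below all 3 WT libraries (76.6%), against 20.1% of tested entries. The members' median log2 fold change was -0.61, a 1.52-fold fall, against 0.01 for all tested entries, and 73 of 77 were below 0. The fall was narrow in size among abundant members: the 46 with a mean of 50 RPKM or more ran from -1.18 to -0.31 on the log2 scale with an SD of 0.158, and 40 of them were called lower (87.0%). Among 1653 other entries at that level the SD was 0.376 and 15.8% were called lower.

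**Figure D2:**
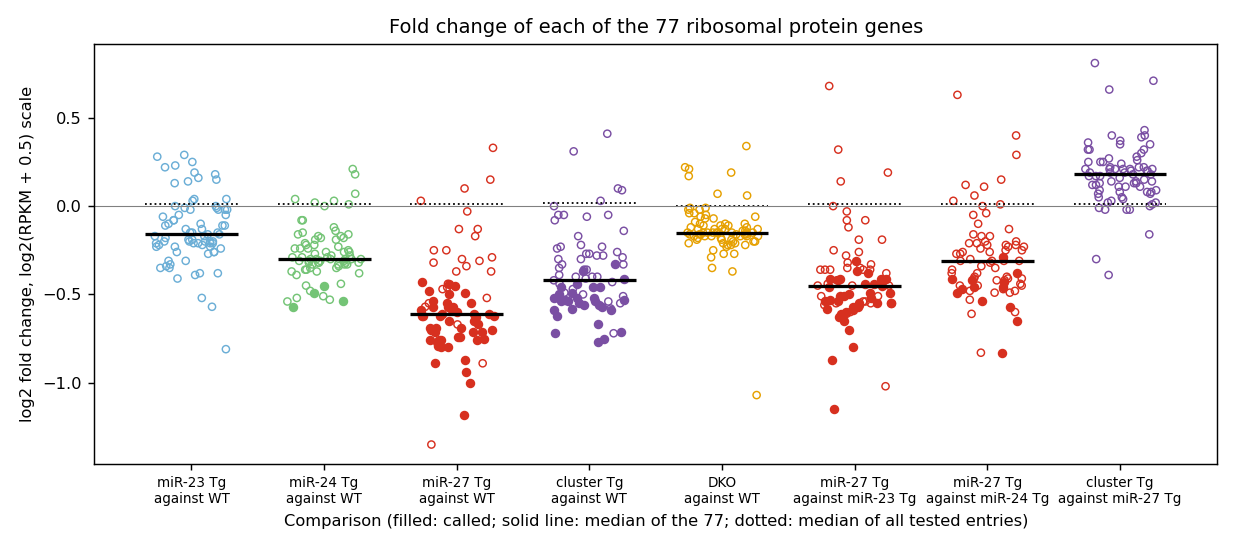
Each point is 1 of the 77 genes and the vertical axis its log2 fold change on the log2(RPKM + 0.5) scale, for 8 comparisons. Filled points were called (adjusted p under 0.05), solid lines mark the median of the 77 and dotted lines that of all tested entries; the solid line is at -0.61 for miR-27 Tg against WT and -0.42 for cluster Tg against WT.

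The largest falls in miR-27 Tg by the naming rule were those of Rps15a, Rps27, Rpl17 and Rpl23. Rps15a, a core protein of the small-subunit body, had 52.9, 44.4 and 45.6 RPKM in miR-27 Tg, against 112, 109 and 103 RPKM in WT. Its gene lies on GRCm38 at chr7:118104372-118116188. The 2 groups lie far apart, a 2.26-fold fall (log2 -1.18 ± 0.13 SE, adjusted p = 4.51e-05 by limma), and cluster Tg libraries at 53, 58.5 and 80.5 RPKM lay between them. Rpl23, which lines the face between the subunits and can bind Mdm2, had 125, 117 and 117 RPKM in miR-27 Tg, against 214, 227 and 228 RPKM in WT (1.86-fold lower, adjusted p = 0.000404 by limma). The groups did not overlap, and the other single-microRNA genotypes stayed closer to WT, at 168 to 212 RPKM in miR-23 Tg and 175 to 200 RPKM in miR-24 Tg. Rpl17, a protein near the exit of the peptide tunnel, had 21.6, 17.7 and 17.9 RPKM in miR-27 Tg, against 41.4, 40.0 and 30.7 RPKM in WT (1.92-fold lower, adjusted p = 0.000211 by limma). Rps27, a zinc-binding protein of the small subunit, had 10.3, 7.31 and 5.5 RPKM in miR-27 Tg, against 16.4, 19.0 and 11.8 RPKM in WT (2.0-fold lower, adjusted p = 0.0178 by limma). Rps28, picked after its values were seen, had a log2 fold change of -1.35 and did not pass, with 0.476, 1.15 and 0 RPKM in miR-27 Tg against 1.17, 2.35 and 2.3 RPKM in WT. Its levels correspond to at most about 28 reads per library.

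The stalk proteins, which recruit the GTPase translation factors to the large subunit, were among the most abundant members and all 3 fell. Rplp1 had 2274, 2107 and 2156 RPKM in miR-27 Tg, against 3071, 3450 and 2624 RPKM in WT (1.39-fold lower, adjusted p = 0.0314 by limma). Rplp2, its partner in the stalk dimer, had 1418, 1264 and 1266 RPKM in miR-27 Tg, against 2261, 2107 and 1993 RPKM in WT (1.61-fold lower, adjusted p = 0.00282). Rplp0, the base of the stalk and a frequent reference gene in quantitative PCR, had 757, 891 and 906 RPKM in miR-27 Tg, against 1113, 1239 and 1142 RPKM in WT (1.37-fold lower, adjusted p = 0.0125 by limma). In each of the 3 stalk genes the miR-27 Tg libraries lay below every WT library.

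Rpl4 and Rpl3, proteins near the catalytic centre and the peptide tunnel, fell by a size similar to that of the stalk proteins. Rpl4, which lines the tunnel, had 1417, 1436 and 1435 RPKM in miR-27 Tg, against 1977, 2111 and 1951 RPKM in WT (1.41-fold lower, adjusted p = 0.0117 by limma). Rpl3, which reaches toward the peptidyl transferase centre, had 55.3, 59.4 and 49.3 RPKM in miR-27 Tg, against 85.5, 87.7 and 75.2 RPKM in WT (1.51-fold lower, adjusted p = 0.000692 by limma). Rpl10, needed for the subunits to join, was listed at only 2.64 to 3.27 RPKM in miR-27 Tg and 3.07 to 5.28 RPKM in WT, with no call. Rpl5 and Rpl11, which enter the large subunit together and can bind Mdm2, were also listed low, Rpl5 at 0.91 to 1.94 RPKM in miR-27 Tg and 1.91 to 2.25 RPKM in WT, and Rpl11 at 1.98 to 2.78 RPKM in miR-27 Tg and 2.63 to 3.46 RPKM in WT. Neither passed, and in both the groups overlapped.

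Of 7 small-subunit proteins of the panel 4 fell and 3 did not pass. Rps3, at the mRNA entry channel and known also as a partner of NF-kB in T cells, had 733, 700 and 803 RPKM in miR-27 Tg, against 1175, 1250 and 1202 RPKM in WT (1.62-fold lower, adjusted p = 0.0032 by limma). Rps14, whose loss underlies a human macrocytic anaemia, had 1158, 1029 and 1083 RPKM in miR-27 Tg, against 1949, 1942 and 1630 RPKM in WT (1.68-fold lower, adjusted p = 0.00207 by limma). Rps4x, the X-linked small-subunit gene, fell 1.61-fold (adjusted p = 0.000813) and Rps6, the substrate of S6 kinase, fell 1.53-fold, to 7.04 to 7.58 RPKM in miR-27 Tg against 9.93 to 13.2 RPKM in WT (adjusted p = 0.00497, both by limma). Rps19, mutated in human Diamond-Blackfan anaemia, did not pass: it had 247, 239 and 341 RPKM in miR-27 Tg, against 395, 375 and 445 RPKM in WT (adjusted p = 0.0663 by limma). Its 2 groups nevertheless did not overlap. Rpsa, which closes the small-subunit head, had 4.1 to 8.1 RPKM in miR-27 Tg and 5.06 to 8.63 RPKM in WT, and Rps27a, made as a fusion to ubiquitin, 3.47 to 5.08 RPKM in miR-27 Tg and 4.82 to 5.73 RPKM in WT. Neither passed.

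Members with roles outside the ribosome gave mixed values. Rpl22, which mouse alpha-beta T cells need to develop, had 137, 130 and 142 RPKM in miR-27 Tg, against 211, 217 and 199 RPKM in WT (1.53-fold lower, adjusted p = 0.00158 by limma). Rpl13a, known from human monocytes as a translational silencer, fell 1.63-fold (adjusted p = 0.00371). Rpl38, needed for translation of Hox mRNAs in mouse embryos, had 265, 219 and 331 RPKM in miR-27 Tg, against 397, 419 and 561 RPKM in WT (1.69-fold lower, adjusted p = 0.0427 by limma). Rpl41, the shortest protein of the ribosome, did not pass. It had 631, 685 and 547 RPKM in miR-27 Tg, against 965, 1076 and 436 RPKM in WT, and WT library 3 lay below every miR-27 Tg library. Without that WT library the log2 fold change was -0.72 and Rpl41 passed.

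**Figure D3:**
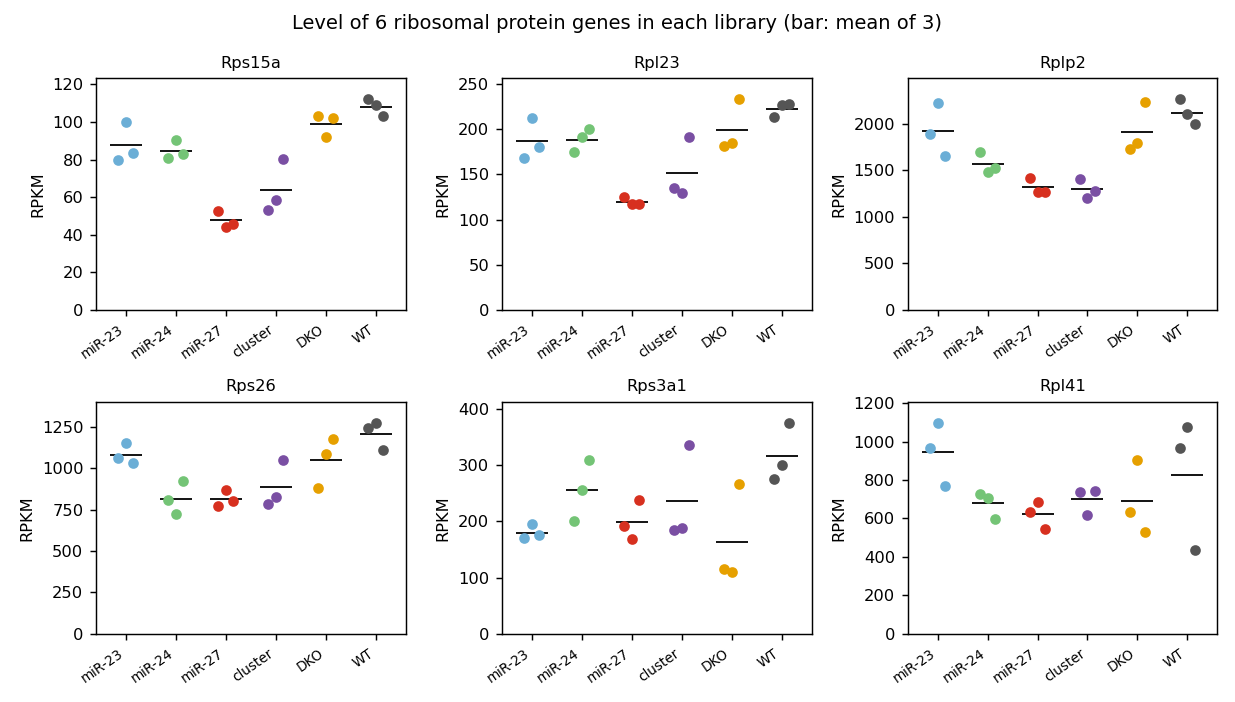
RPKM (linear axes from 0) of Rps15a, Rpl23, Rplp2, Rps26, Rps3a1 and Rpl41 in each library of the 6 genotypes; points are libraries and bars the mean of 3. Rps15a and Rpl23 are lowest in miR-27 Tg, Rps26 is about as low in miR-24 Tg (721 to 921) as in miR-27 Tg (772 to 870), Rps3a1 is lowest in DKO libraries 1 and 2 (115 and 110), and Rpl41 has 1 low WT library at 436.

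The 27 members that did not pass in miR-27 Tg against WT were mostly listed at low levels. Of them 17 had a mean under 10 RPKM over all libraries and 6 a mean of 50 RPKM or more: Rps2, Rps3a1, Rps19, Rpl30, Rpl39 and Rpl41. By the same measure 5 of the 22 members under 10 RPKM and 5 of the 9 between 10 and 50 RPKM were called lower. No member was called higher. The 3 positive values with the smallest unadjusted p were 0.33 for Rpl23a, 0.15 for Rps29 and 0.1 for Rps13 on the log2 scale, none near the threshold (adjusted p = 0.509, 0.764 and 0.772 by limma), all with a mean under 4 RPKM over the libraries. None stayed above 0 when single libraries were left out: Rpl23a was at -0.02 without WT library 2, Rps29 at 0.0 without miR-27 Tg library 2 and Rps13 at -0.19 without miR-27 Tg library 3 and -0.01 without WT library 3.

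Markers of other cells, of division and of resting T cells moved with the miR-27 Tg result. The summed RPKM of 12 B cell markers was 73.7, 106 and 147 in miR-27 Tg libraries 1 to 3, against 63.9, 59.5 and 56.8 in WT. Of these, Ms4a1, which encodes the B cell surface protein CD20, was at 2.09 to 12.5 RPKM in miR-27 Tg, next to 0.514 to 0.662 RPKM in WT. Of the 11 B cell markers tested, 9 were called higher. Of all tested entries 15.9% were called higher and 12.7% lower in miR-27 Tg. The summed RPKM of 18 cell cycle markers was 449, 1000 and 967 in miR-27 Tg, against 192, 278 and 298 in WT, and all 18 were called higher. Of 10 resting T cell markers 6 were called lower in miR-27 Tg and likewise 6 in cluster Tg, and their summed RPKM was 1150 to 1251 in miR-27 Tg, 1226 to 1261 in cluster Tg and 1433 to 1536 in WT. Some markers of further cell types were called higher in miR-27 Tg. For plasma cells these were 3 of 6 tested, with sums of 80.1 to 173 RPKM in miR-27 Tg and 54.1 to 61.3 RPKM in WT. For myeloid cells these were 3 of 9, with 97.5 to 184 RPKM in miR-27 Tg and 90.4 to 94.5 RPKM in WT. For NK cells these were 3 of 6 (1 was lower), with 8.81 to 26.4 RPKM in miR-27 Tg and 6.91 to 7.6 RPKM in WT. Of 2 CD8 T cell markers 1 was called higher, with 16.6 to 30.8 RPKM in miR-27 Tg and 16.3 to 17.7 RPKM in WT. Of 6 tested erythroid and platelet markers 0 were called, with sums of 3.33, 180 and 68.8 RPKM in miR-27 Tg and 2.27 to 24 RPKM in WT. No marker of these lists was at 0 in all libraries. The members' mean log2 level was 5.87, 5.91 and 5.93 in miR-27 Tg libraries 1 to 3. Cluster Tg libraries 1 and 2 had B cell sums of 60.8 and 62.7, inside the WT range, and member means of 5.94 and 5.97, against 6.41 to 6.53 in WT. In miR-23 Tg the B cell sum was 76.0 to 79.9 and the cell cycle sum 450 to 488, against 441 to 494 for the cell cycle sum in cluster Tg, and no member was called. With the B cell level as a covariate 7 members were called lower in miR-27 Tg against WT, where 2.05% of all tested entries were called lower. The members' median stayed at -0.61, with 73 of 77 below 0, and their median standard error was 0.259, against 0.161 without the covariate. Beyond these values the part of other cells in the result was not tested.

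In cluster Tg, where miR-27 is raised together with its neighbours, 30 members were called lower (39.0%) and 0 higher, against 10.5% of all tested entries called lower and 13.8% called higher. All 3 cluster Tg libraries lay below all WT libraries in 36 members (46.8%), against 17.8% of tested entries. The median log2 fold change of the members was -0.42, against 0.02 for all tested entries. All 5 comparisons with WT share the WT libraries, so a member called in several of them is not separate evidence. By the naming rule the largest falls were in Rps15a (1.71-fold, adjusted p = 0.000954), Rps20 (1.68-fold, adjusted p = 0.00189), Rps16 (1.65-fold, adjusted p = 0.00603) and Rplp2 (1.64-fold, adjusted p = 0.00282), all by limma. Rps20, a protein of the small-subunit head, had 666, 686 and 907 RPKM in cluster Tg, against 1260, 1440 and 1081 RPKM in WT. Rps16, whose tail reaches the tRNA in the small subunit, had 180, 194 and 274 RPKM in cluster Tg, against 356, 407 and 298 RPKM in WT. Rplp2 differed in that library 3 was low as well, with 1406, 1206 and 1277 RPKM in cluster Tg. For Rpl26, Rpl23a and Rpl15, the positive values with the smallest p, the log2 fold changes were 0.41, 0.31 and 0.09 and none passed, with Rpl23a at -0.05 without WT library 2. The count of 30 moved with single libraries: it was 12 without cluster Tg library 1, 13 without library 2, 16 without WT library 1 and 14 without WT library 2. It was 44 without cluster Tg library 3, 15 with no filter on low values and 8 when only cluster Tg and WT entered the fit. The share of all tested entries called in these refits is not given here. Fewer libraries lower the power for every entry, so whether these moves are particular to the members was not tested.

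In miR-24 Tg 4 members were called lower (5.19%) and 0 higher, close to the 4.38% of all tested entries called lower and the 4.6% called higher, and all 4 were of the small subunit. Rps26, at the mRNA exit, had 809, 721 and 921 RPKM in miR-24 Tg, against 1242, 1273 and 1110 RPKM in WT (1.48-fold lower, adjusted p = 0.0221 by limma). Rps20 had 845, 826 and 921 RPKM in miR-24 Tg, against 1260, 1440 and 1081 RPKM in WT (1.45-fold lower, adjusted p = 0.0295 by limma). Rps10, of the small-subunit head, and Rps25, used by some viral internal ribosome entry sites, fell 1.4-fold and 1.37-fold (adjusted p = 0.0388 and 0.0261 by limma). In each of the 4 the groups did not overlap, and Rps26 was as low in miR-24 Tg as in miR-27 Tg, with a direct log2 difference of 0.0 ± 0.141. The members' median was -0.30 and 69 of 77 were below 0, with 33 members (42.9%) at lower values in every miR-24 Tg library than in any WT library, against 14.6% of tested entries. Rps23, Rpl11 and Rpl10 had the positive values with the smallest p, at 0.18, 0.21 and 0.07 on the log2 scale, and none passed, with Rpl10 at -0.23 without miR-24 Tg library 2 and -0.16 without WT library 3. No member was called without miR-24 Tg library 1 or 2 or without WT library 1 or 2, nor with the B cell covariate, and 1 was called with no filter or when libraries were scaled on entries other than members and small RNAs, 2 when only these 2 genotypes entered the fit. Library 1 of miR-24 Tg had the highest B cell sum of its group, 138 against 86.9 and 90.1.

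In miR-23 Tg and in DKO no member passed in either direction by limma. At an unadjusted p under 0.05 there were 4 members in miR-23 Tg and 2 in DKO. Of all tested entries 0.2% were called lower and 0.156% higher in miR-23 Tg, and 0.0% lower and 0.0174% higher in DKO. The median log2 fold change of the members was -0.16 in miR-23 Tg and -0.15 in DKO. In DKO 70 of 77 members were below 0, but all 3 DKO libraries lay below all WT libraries in 3 members only (3.9%), against 2.73% of tested entries, since DKO library 3 overlapped WT in most members. In miR-23 Tg the libraries lay below all WT libraries in 20 members (26.0%), against 10.8%. Rps3a1, which contacts initiation factors on the small subunit, had the lowest value in both comparisons. It stood at 170, 195 and 175 RPKM in miR-23 Tg and 115, 110 and 267 RPKM in DKO, against 276, 300 and 375 RPKM in WT. Its log2 fold changes of -0.81 ± 0.307 in miR-23 Tg and -1.07 ± 0.307 in DKO did not pass (adjusted p = 0.256 and 1.0 by limma), and DKO library 3 lay near WT. Relative to the mean of all members, Rps3a1 deviated from its WT position by -0.93 in DKO, ranging from -1.36 to -0.29 over the libraries, and by -0.67 in miR-23 Tg, from -0.73 to -0.64. The other members with the smallest p downward were Rpl17 and Rps15a in miR-23 Tg (-0.39 and -0.31) and Rps25 and Rpl7a in DKO (-0.25 and -0.16). Upward they were Rps27a, Rpl34 and Rpl41 in miR-23 Tg (0.23, 0.19 and 0.28) and included Rpl10a and Rps13 in DKO (0.21 and 0.19), and none passed. The value of Rpl41 in miR-23 Tg rests on WT library 3: it was -0.12 without that library.

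Direct comparisons set miR-27 Tg against the other single-microRNA genotypes, without WT. Against miR-23 Tg 38 members were called lower (49.4%) and 0 higher, where 10.9% of tested entries were called lower and 12.4% higher. The members' median log2 fold change was -0.45. The largest falls by the rule were Rps27 (2.23-fold, adjusted p = 0.0105), Rps15a (1.83-fold, adjusted p = 0.000462), Rpl10 (1.74-fold, adjusted p = 0.0375) and Rps24 (1.63-fold, adjusted p = 0.00193), all by limma. Rps24, another gene of human Diamond-Blackfan anaemia, had 316, 266 and 268 RPKM in miR-27 Tg, against 426, 546 and 417 RPKM in miR-23 Tg. Leaving out single libraries brought the count to 22 (miR-23 Tg library 1), 15 (miR-23 Tg library 2), 24, 17 and 22 (miR-27 Tg libraries 1, 2 and 3), and no filter gave 20. Against miR-24 Tg 13 members were called lower (16.9%) and 0 higher, where 10.9% of tested entries were called lower and 13.2% higher, with a median of -0.31. Rps15a, Rpl23, Rpl17 and Rps24 had the largest falls that passed (1.78-fold, 1.57-fold, 1.49-fold and 1.46-fold, adjusted p = 0.000686, 0.0042, 0.0068 and 0.00897 by limma). That count was 7 without miR-24 Tg library 2, 6 without its library 3, 6 without miR-27 Tg library 2 and 5 without its library 3. It was 24 when libraries were scaled on entries other than members and small RNAs, 23 with the replicate number as a block and 8 with no filter. Neither comparison had a member passing upward, and the positive values with the smallest p included those of Rps29, Rpl27 and Rpl23a against miR-23 Tg (0.68, 0.32 and 0.19) and of Rpl23a and Rpl27 against miR-24 Tg (0.63 and 0.29). Rpl27 was at -0.06 against miR-24 Tg without miR-24 Tg library 3.

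Cluster Tg did not differ from miR-27 Tg in any member past the threshold by limma. At an unadjusted p under 0.05 there were 12 members, the median was 0.18 with 69 of 77 above 0, and 3.35% of tested entries were called lower and 3.5% higher. Rpl15, of the large-subunit core, came closest, with 20.1, 16.4 and 19.9 RPKM in cluster Tg, against 13.5, 13.4 and 15.9 RPKM in miR-27 Tg (1.31-fold, adjusted p = 0.0556 by limma). Rpl3 (1.25-fold, adjusted p = 0.0689) and Rps15a (1.32-fold, adjusted p = 0.0758) followed, both by limma. Downward, Rps29 and Rps13 had -0.39 and -0.16 on the log2 scale and did not pass, and Rps13 was at 0.13 without miR-27 Tg library 3.

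**Figure D4:**
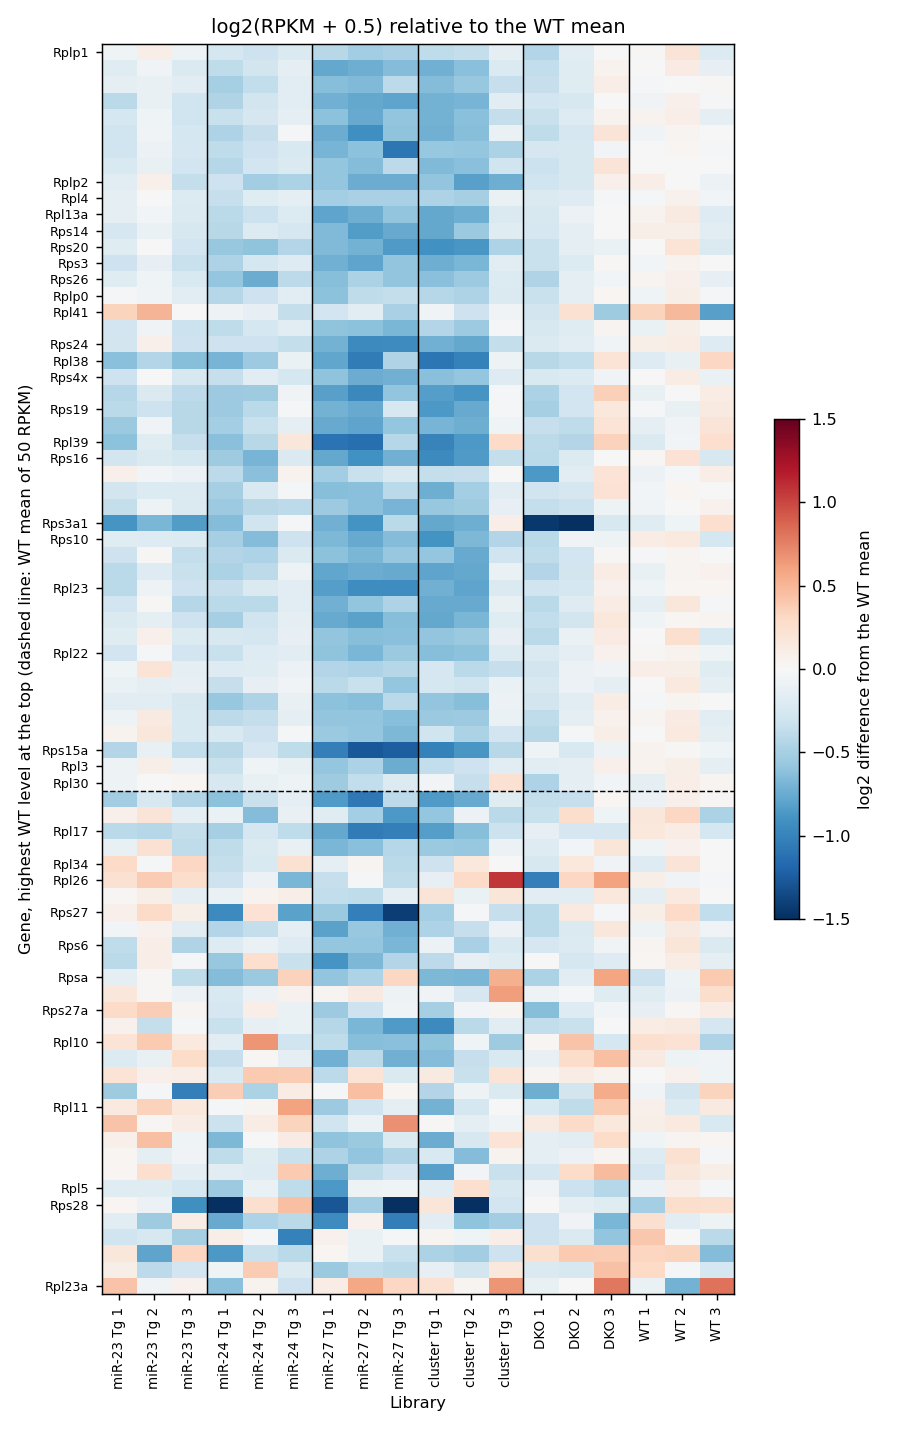
Rows are the 77 genes, highest WT level at the top and some of those described in the text labelled, and columns the 18 libraries; colour gives log2(RPKM + 0.5) minus the mean of the 3 WT libraries (blue below, red above), and the dashed line marks a WT mean of 50 RPKM. Above the line nearly all rows are blue in the 3 miR-27 Tg and the first 2 cluster Tg libraries, Rps3a1 is darkest in DKO libraries 1 and 2, and below the line rows vary from library to library.

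The members varied together over the 18 libraries where they were abundant. Among the 46 with a mean of 50 RPKM or more, the correlation of log2 values between pairs of members had a median of 0.849 (10th to 90th percentile 0.525 to 0.947), as a description over 18 libraries that share genotype and scaling. Each correlated with the mean of the other 76 with a median r of 0.927, and 28 of the 46 were over 0.9. For members under 50 RPKM that median was 0.556, with the lowest values for Rpl27 (-0.296), Rpl23a (-0.044) and Rps29 (-0.031), all with a mean under 4 RPKM. Rpl41 (0.299) and Rps3a1 (0.39) stood out among the abundant members. Relative to the members' mean and their WT position, Rps15a deviated by -0.62 in miR-27 Tg libraries and by -0.39 in cluster Tg libraries. Rpl41 deviated by 0.42 in miR-23 Tg, but by 0.04 without WT library 3.

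Levels listed for the members spanned more than 1000-fold in WT, from 0.771 RPKM for Rpl23a to 3048 RPKM for Rplp1, although ribosomes hold nearly all of these proteins in equal number. The listed level followed how much of a gene's sequence is unique. For each member, 50-base words of the coding part were searched in the GENCODE transcripts of all other genes, on either strand, and the percent found there is the shared percent. Over the 77 genes Spearman's rho between shared percent and mean level was -0.788 in WT and -0.801 in miR-27 Tg, as a description across genes, which are not independent replicates. The 28 members with every coding word shared had a median of 4.9 RPKM in WT, and 25 of them were under 50 RPKM. The 49 others had a median of 350 RPKM, and the 10 members with under 50% shared, among them Rps3 (8.1%) and Rpl4 (20.2%), had a median of 2342 RPKM and none under 209 RPKM. In those 10 members the fall in miR-27 Tg against WT was called every time, at -0.80 to -0.49 on the log2 scale. In the 28 fully shared members the median was -0.48 and 12 were called. Mouse ribosomal protein genes have many processed pseudogenes, and how reads that fit several places were counted is not given in the sources used here, so levels of the shared members are uncertain and should not be compared between genes.

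For 3 members a near-identical copy, picked after its values were seen, was listed as its own entry at a far higher level. Rpl34 averaged 23.5 ± 3.23 RPKM in WT, while Rpl34-ps1, which holds 71.5% of the coding words of Rpl34, averaged 1187 ± 85.9 RPKM there. Rpl26 averaged 22.0 ± 1.13 RPKM in WT, while Gm15772, with 74.3% of its words, averaged 485 ± 31.1 RPKM. Rpl30 averaged 64.2 ± 5.61 RPKM in WT, while Gm12191, with 83.3% of its words, averaged 709 ± 62.3 RPKM (SD, n = 3 each). None of these 3 members passed in miR-27 Tg against WT, with log2 fold changes of -0.17, -0.25 and -0.37. Their 3 copies were called lower there: Rpl34-ps1 averaged 692 ± 46.0 RPKM in miR-27 Tg, next to 1187 ± 85.9 RPKM in WT, Gm15772 averaged 294 ± 20.2 RPKM in miR-27 Tg, next to 485 ± 31.1 RPKM in WT, and Gm12191 averaged 392 ± 44.2 RPKM in miR-27 Tg, next to 709 ± 62.3 RPKM in WT (log2 fold change -0.85, adjusted p = 0.00419 by limma). BC004004, also picked after its values were seen, holds 53.5% of the words of Rpl21. Whether BC004004 is a copy of Rpl21 or another gene that shares a stretch with it was not tested. BC004004 averaged 21.5 ± 0.947 RPKM in miR-27 Tg against 20.5 ± 1.1 RPKM in WT, with no call. In cluster Tg it averaged 26.7 ± 2.13 RPKM (SD, n = 3 each), a rise against WT (log2 0.37, adjusted p = 0.00611 by limma). Rpl21 had 1.94 to 2.77 RPKM in WT. Reads of a gene and its copy cannot be assigned with certainty from these values.

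**Figure D5:**
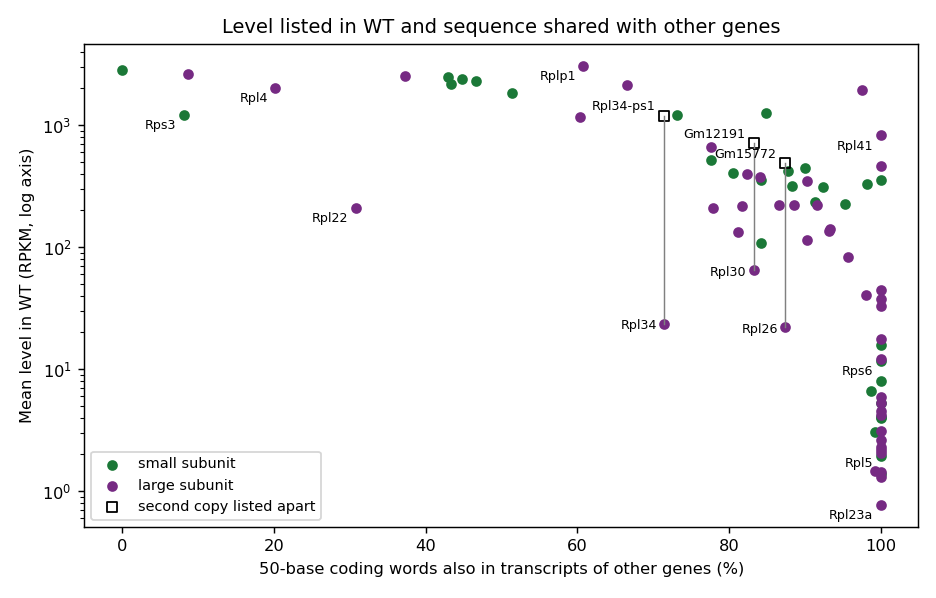
Each filled point is 1 of the 77 genes, with the percent of its 50-base coding words found in transcripts of other genes on the horizontal axis and its mean WT level (RPKM, log axis) on the vertical axis, coloured by subunit. Open squares joined by lines are the second copies of Rpl34, Rpl26 and Rpl30 listed as entries of their own; genes with all words shared are mostly under 50 RPKM, and those under 50% shared are all at 209 RPKM or more.

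Rpl21 and Rpl27a, the 2 members with a miR-27 match shown above, changed by -0.5 and -0.57 on the log2 scale in miR-27 Tg against WT, next to the members' median of -0.61. Rpl21 had 1.53, 1.36 and 1.54 RPKM in miR-27 Tg, against 1.94, 2.77 and 2.23 RPKM in WT (adjusted p = 0.0264 by limma). In miR-24 Tg against WT none of the 4 members with a miR-24 match passed, and Rpl37, Rps15a and Rps24 among them had log2 fold changes of -0.3, -0.35 and -0.33, next to a median of -0.30.

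Genes around the ribosome gave a mixed picture in miR-27 Tg against WT, where 12.7% of all tested entries were called lower and 15.9% higher. Mitochondrial ribosomal proteins, which serve a separate ribosome, had a median of 0.04, with 4 of 76 tested called lower and 1 higher. Mrpl30 had the smallest p, at 61.4 ± 6.96 RPKM in miR-27 Tg against 102 ± 4.65 RPKM in WT. Of 18 translation factors and other genes with TOP mRNAs 8 were called lower and 0 higher, with a median of -0.29. Among them were Eef1a1, which delivers tRNA, at 1633 ± 56.4 RPKM in miR-27 Tg against 2313 ± 131 RPKM in WT, and its exchange factor subunit Eef1b2 at 330 ± 17.6 against 505 ± 8.01 RPKM. Eif3f had 254 ± 7.0 RPKM in miR-27 Tg against 363 ± 25.3 RPKM in WT, and Hnrnpa1 had 19.1 ± 1.35 against 31.1 ± 3.63 RPKM. Of 8 host transcripts of small nucleolar RNAs, most of them TOP RNAs as well, 6 were called lower and 0 higher with a median of -0.60, among them Snhg8 at 33.2 ± 2.46 RPKM in miR-27 Tg against 67.6 ± 4.46 RPKM in WT and Snhg12 at 53.2 ± 7.9 against 92.2 ± 6.2 RPKM. In cluster Tg against WT none of these 8 was called, and their median was -0.25 (all SD, n = 3 each).

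Ribosome assembly genes and the upstream regulators moved less as lists. Of 39 ribosome biogenesis genes 5 were called lower and 0 higher in miR-27 Tg against WT, with a median of -0.03. That is near the 12.7% of all tested entries called lower there, while 15.9% were called higher. Nop10, of the pseudouridylation complexes that modify ribosomal RNA, had 39.8 ± 2.06 RPKM in miR-27 Tg against 80.7 ± 5.77 RPKM in WT, and Nob1, which finishes the small-subunit RNA, at 31.9 ± 3.82 against 42.8 ± 2.38 RPKM (SD, n = 3 each). Of 24 genes of mTORC1, Myc and Larp1 control 2 were called lower and 2 higher, with a median of -0.06. Myc had 51.2 ± 9.7 RPKM in miR-27 Tg against 80.0 ± 9.23 RPKM in WT. In cluster Tg, with Larp1 picked after its values were seen, Myc stood at 50 ± 5.46 RPKM (log2 -0.67, adjusted p = 0.00183 by limma) and Larp1 at 33.9 ± 3.19 RPKM against 47.3 ± 1.84 RPKM in WT (log2 -0.48, adjusted p = 0.00776 by limma). Larp1 was not called in miR-27 Tg, where the members fell most, at 44.0 ± 3.84 RPKM (log2 -0.11, adjusted p = 0.521 by limma). Mtor was at 10.8 ± 1.66 RPKM in miR-27 Tg and 10.4 ± 1.09 RPKM in WT.

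Ribosomal protein genes outside the naming pattern did not all follow the members. Gnb2l1, the small-subunit scaffold also called Rack1, had 1398 ± 24.9 RPKM in miR-27 Tg against 2043 ± 97.2 RPKM in WT, and Fau, the fusion gene of Rps30, had 22.6 ± 1.27 against 31.3 ± 0.653 RPKM. The paralogue Rpl22l1 had 92.7 ± 5.05 RPKM in miR-27 Tg against 157 ± 8.01 RPKM in WT. Of genes picked after their values were seen, Rps27l, a paralogue of Rps27 and a known p53 target, was higher in cluster Tg, at 112 ± 11.5 RPKM against 67.4 ± 14.4 RPKM in WT (log2 0.75, adjusted p = 0.0161 by limma), and Rps4l, a copy of Rps4x, stood at 4.75 ± 1.09 RPKM in cluster Tg against 1.48 ± 0.223 RPKM in WT (log2 1.39, adjusted p = 0.018 by limma). Of 9 tested genes of this kind 4 were called lower and 1 higher in miR-27 Tg, and 2 lower and 2 higher in cluster Tg (SD, n = 3 each). Among 11 tested p53 targets 3 were called higher and 0 lower in miR-27 Tg, and 4 higher and 0 lower in cluster Tg. Of all tested entries 12.7% were called lower and 15.9% higher in miR-27 Tg, and 10.5% lower and 13.8% higher in cluster Tg. The p53 targets called higher included Cdkn1a, an inhibitor of the cell cycle, at 19.2 ± 4.65 RPKM in miR-27 Tg, 27.8 ± 21.3 RPKM in cluster Tg and 5.08 ± 3.54 RPKM in WT. Bax, which triggers cell death at mitochondria, was another, at 143 ± 15.3 RPKM in miR-27 Tg, 131 ± 16 RPKM in cluster Tg and 102 ± 6.09 RPKM in WT. Mdm2, picked after its values were seen, was not called, at 39.9 ± 4.15 RPKM in miR-27 Tg, 47.1 ± 3.15 RPKM in cluster Tg and 41.0 ± 2.42 RPKM in WT.

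The entries whose levels were most like the members' mean over the 18 libraries included translation genes and copies of members. Out of 11443 tested entries that are no members, Gnb2l1 came first with a Pearson r of 0.994, then Gm15772 (0.964), Rpl34-ps1 (0.955), Eef1a1 (0.954), Eef1b2 (0.953), Cox7a2l (0.944), 2010107E04Rik (0.935) and Mrpl30 (0.93). Among the most opposite were Atp2b4 (-0.943), a plasma membrane calcium pump, Abr (-0.92) and Clasp1 (-0.915). Atp2b4 had 27 ± 1.74 RPKM in miR-27 Tg against 9.84 ± 0.779 RPKM in WT (SD, n = 3 each). These correlations describe libraries that share genotype, and carry no test.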

How the data were processed

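RNA from sorted CD4+CD25hi Treg cells of 6 genotypes, 3 libraries each, was measured. The authors deposited 1 table of RPKM values. Total RNA with small RNAs was taken up in TruSeq libraries for a HiSeq instrument, per the labels' protocols, and the submitters' processing notes name STAR 2.2.0c, HOMER and the build mm10 (GRCm38), with no annotation given in the sources used here. Read counts were not used. Intervals from counting error were not formed, because the depth was only estimated, at 20.16 to 31.52 megareads, from the steps between low values of 4184 genes with 1 transcript.

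Of 23953 entries 4 with a repeated symbol were left out. Entries reaching 1 RPKM in 3 or more libraries (11520, all 77 members among them) were tested on log2(RPKM + 0.5) with limma 3.58.1 in R 4.3.3, in 1 model with a trend over the 18 libraries (prior degrees of freedom 2.26). A call is a two-sided Benjamini-Hochberg adjusted p under 0.05 within the comparison. Fold changes on this scale understate changes of low entries. The script was tested on simulated data. Tables were handled with Python 3.11.15 and pandas 2.3.3, figures with matplotlib 3.10.9. Chromosomal positions, 3′ UTRs and 50-base words came from GENCODE mouse release M21 (GRCm38), and microRNAs and promoters from RefSeq.

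Members, gene lists, tests and the alternatives in the closing section were chosen with earlier results of these data known, and give no independent support to patterns already seen. Named members were a panel of roles and, per comparison, the 4 largest falls and rises among calls whose groups did not overlap. Where under 3 passed, the next 3 by unadjusted p were added and given as not passing. Named genes of the lists had the smallest p in miR-27 Tg against WT, and some others are given as values beside them. A few items that the rule names are not reported here.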

Additional observations from a re-analysis of the deposited data

How the results depend on the processing

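Counts of members called are given with alternatives one at a time, and where they moved by more than 1.5 times the cause was not tested. Except for the B cell covariate in miR-27 Tg against WT, the share of all tested entries called under an alternative is not given. Whether a move in a count is particular to the members was therefore not tested. For miR-27 Tg against WT the count of 50 lower members became 7 with the B cell covariate and was 40 to 55 under the other settings. For cluster Tg against WT (30) it became 15 with no filter and 8 with only the 2 groups, and leaving out single libraries gave 12 to 44. For miR-24 Tg against WT (4) it became 1 with no filter, 1 when scaled to other entries, 2 with only the 2 groups, 0 with the B cell covariate, 0 with both miR-24 Tg 1 and miR-27 Tg 3 left out and 10 with a cell cycle covariate chosen after seeing the data, and 0 to 5 without single libraries. For miR-27 Tg against miR-23 Tg (38) it became 20 with no filter, 19 with those 2 libraries left out and 15 to 26 without single libraries. For miR-27 Tg against miR-24 Tg (13) it became 8 with no filter, 24 when scaled to other entries, 6 with those 2 libraries left out and 5 to 15 without single libraries. For miR-23 Tg against WT (0) it became 1 with only the 2 groups. Members higher in cluster Tg against miR-27 Tg (0) became 3 with the cell cycle covariate and 0 to 1 without single libraries. DKO against WT stayed at 0 members in both directions. The replicate block gave 23 members in miR-27 Tg against miR-24 Tg and changed no other count by over 1.5 times. Replicate numbers were not taken to pair the libraries, since not every pair was over 0.1: over 45 pairs of libraries of different groups with the same number the correlation of deviations had a median of 0.004, and of 6 pairs over 0.1, 5 were between libraries numbered 3. Medians of the members reversed in none of 128 recalculations. Of 528 recalculations of named members 436 kept direction and side of the threshold, 85 lost the call, 6 gained one and 1 reversed, Rpl41 in miR-27 Tg against WT at 0.18 with the cell cycle covariate. Of the lost calls 15 were with the B cell covariate. Pseudocounts of 0.1 and 1 and median-of-ratios scaling lost no named call. The depth limits the members under 10 RPKM, where Rpl23a had about 3 to 27 reads per library.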

Other observations

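Some members were highest in library 3 of nearly every genotype. In 12 of the 77 members (15.6%) the library numbered 3 was the highest of its 3 in at least 5 of the 6 genotypes, against 7.25% of tested entries, and for number 1 this held in no member, against 2.94%. Among them were Rpl8, Rpl11, Rpl30, Rpl35a, Rpl38, Rpl39, Rps2, Rps3a1, Rps18, Rps19 and Rpsa. Rpl39, a small protein of the peptide tunnel, had 276 RPKM in library 3 of miR-27 Tg beside 173 and 169 in libraries 1 and 2, 453 in library 3 of cluster Tg beside 186 and 205, and 442 in library 3 of WT beside 321 and 363. Rpsa had 9.57 RPKM in library 3 of cluster Tg beside 3.85 and 3.83, and 10 in library 3 of DKO beside 4.48 and 5.68. Rpl39 missed the threshold in miR-27 Tg against WT, with a log2 fold change of -0.89 (adjusted p = 0.0557 by limma). The labels give no meaning to the numbers.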
